A study of Rattus norvegicus with 16 samples.

Results

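The genes described here encode the machinery that fuses synaptic vesicles with the presynaptic membrane. They were taken from the deposited expression table by symbol. The rule took every row named Syt, Stx, Vamp, Cplx, Syn or Stxbp followed by a digit, with the vesicle proteins Sv2a, Sv2c and Syp, the SNARE proteins Snap25 and Snap29, and the active zone and priming genes Unc13a, Unc13b, Unc13c, Rims1, Rims2, Bsn and Pclo. It found 62 of 15580 genes. Sv2b and Snap23 were also in the rule, and neither symbol was among the 62 found. The choice used no measured value, but it was made with earlier results of these data known.

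RNA came from brain samples of male Wistar rats, given as amygdala in the design text and as brain, whole tissue lysate, in the sample labels. Control pups stayed with the dam and later ate standard chow, and HFD pups stayed with the dam and later ate a high fat diet. ELS pups (early-life stress) were taken from the dam for 3 h a day during the 16 days that began at postnatal day 1, and later ate chow. ELS-HFD pups were separated likewise and later ate the high fat diet. Every group passed an elevated plus maze near postnatal day 57, and diets began at postnatal day 60; the age at sampling is not given in the labels. Each group holds 4 numbered libraries with no animal, dam or litter named, so the p-values cover only the spread among these libraries, part of which may be technical. Libraries held 11438086 to 23629824 counts. The amygdala label was checked on 10 marker genes, of which 9 had a row and none of those 9 was at 0 in a library. Prkcd, a kinase of central amygdala neurons, ranged from 10.3 to 28.3 CPM, counts scaled to the library total, and Rspo2, of basolateral neurons, from 22.1 to 52.2 CPM. Of the same list, Crh ranged from 1.17 to 9.75 CPM, Nts from 3.64 to 26.3, Cartpt from 5.27 to 34.5 and Dlk1 from 13.8 to 41.0 CPM. The glutamate transporter Slc17a7, which is on the list of excitatory markers and not on the amygdala list, ranged from 987 to 2025 CPM. As the mean log2 level relative to all 16 libraries, the amygdala markers ran from -0.92 to 0.63 in control, 0.09 to 0.35 in HFD, 0.09 to 0.41 in ELS and -0.78 to -0.05 in ELS-HFD. Several libraries stood apart in markers of neighbouring tissue. ELS 3 and ELS 4 were highest in myelin markers, control 4, ELS-HFD 1 and ELS-HFD 2 lowest in striatal markers, and ELS 1, ELS 2 and ELS-HFD 1 lowest in choroid plexus markers. Counts without ELS 3 and ELS 4, and without ELS 1, ELS 2 and ELS-HFD 1, stand beside the counts they moved. The first choice leaves only ELS 1 and ELS 2 in ELS, and the second only ELS 3 and ELS 4. Control 4, ELS-HFD 1 and ELS-HFD 2 were not left out as a set.

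Vesicles fuse when a SNARE protein on the vesicle, a synaptobrevin of the Vamp family, zips together with the syntaxin and SNAP proteins of the plasma membrane. Syntaxin-binding proteins and the Unc13 proteins prepare this complex, complexins bind it, and synaptotagmins trigger fusion when calcium enters. Synapsins tether the reserve of vesicles, and the scaffold proteins Rims1, Bsn (bassoon) and Pclo (piccolo) hold the release site together. In the amygdala this machinery serves both the excitatory synapses of the basolateral nuclei and the inhibitory synapses of the central nucleus.

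No release machinery gene differed between groups past an adjusted p of 0.05 in any of the 8 contrasts or in the test for any difference among the 4 groups. Of the 62 genes, 60 passed the filter on low counts. The other 2 were Stx11, a syntaxin of immune cells, with 2 to 11 counts per library, and the synaptotagmin Syt15, with 4 to 16. The smallest unadjusted p-values were those of Vamp1, lower with separation and high fat diet, and in Unc13b and Cplx2, higher there. Levels are CPM scaled with TMM factors. They were not divided by transcript length, so they compare libraries and not genes.

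The promoter sequences of 4 genes that recur below are shown to place them in the genome. Vamp1 is the gene with the smallest p, Vamp2 is its close relative, and Syt2 and Sv2c had their lowest levels in the same 4 libraries. Each is the 250 bases before an annotated RefSeq start of build GRCr8, written 5′ to 3′ on the gene's strand, with motif matches on either strand in capitals. The windows are chr4:159698644-159698893 on the plus strand for Vamp1, chr10:54292539-54292788 on the plus strand for Vamp2, chr13:48736872-48737121 on the plus strand for Syt2 and chr2:29163169-29163418 on the minus strand for Sv2c. In the gene table of the same build, the windows of Vamp2 and Syt2 lie inside the gene's full span, before a start further downstream, while those of Vamp1 and Sv2c lie directly before it.
Vamp1: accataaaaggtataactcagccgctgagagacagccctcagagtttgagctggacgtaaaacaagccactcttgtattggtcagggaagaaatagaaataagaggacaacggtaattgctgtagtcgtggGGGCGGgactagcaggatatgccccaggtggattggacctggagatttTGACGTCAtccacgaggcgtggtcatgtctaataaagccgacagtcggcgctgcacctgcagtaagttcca
Vamp2: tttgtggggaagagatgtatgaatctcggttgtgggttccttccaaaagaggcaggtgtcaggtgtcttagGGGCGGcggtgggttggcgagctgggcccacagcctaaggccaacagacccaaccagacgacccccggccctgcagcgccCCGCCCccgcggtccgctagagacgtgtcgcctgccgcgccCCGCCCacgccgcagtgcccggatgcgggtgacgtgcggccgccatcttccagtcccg
Syt2: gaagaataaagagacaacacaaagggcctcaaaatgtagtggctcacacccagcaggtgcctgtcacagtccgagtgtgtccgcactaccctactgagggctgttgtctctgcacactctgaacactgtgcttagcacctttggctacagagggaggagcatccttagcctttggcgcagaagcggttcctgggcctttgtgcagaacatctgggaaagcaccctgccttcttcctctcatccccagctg
Sv2c: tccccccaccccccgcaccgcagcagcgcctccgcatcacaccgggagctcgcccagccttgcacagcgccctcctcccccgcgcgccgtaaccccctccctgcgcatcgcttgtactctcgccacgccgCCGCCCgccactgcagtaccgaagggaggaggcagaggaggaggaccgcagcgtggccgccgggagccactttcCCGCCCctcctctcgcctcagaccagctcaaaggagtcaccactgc

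The motifs searched on both strands were the GC box GGGCGG, the cAMP response element TGACGTCA and the E-box CACGTG, and 0 matches overlapped in these 4 windows. The GC box was in 30.5% of 33469 RefSeq promoter windows and in 39 of the 62 windows that belong to release machinery genes. It occurred 1 time in the window of Vamp1, 3 times in that of Vamp2 and 2 times in that of Sv2c. The cAMP response element was in 1.59% of all windows and in those of Vamp1 and Syn1. The E-box was in 5.59% of all windows and in none of these 4. GC content was 50.4% in the window of Vamp1, 68% in that of Vamp2, 54.4% in that of Syt2 and 72% in that of Sv2c, beside a median of 51.2% over all windows. By symbol, 49 of the 62 genes matched an entry. A match is a description of letters and not a bound site.

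The release machinery took a similar share of each group's counts. All 62 genes together made up 1.44% ± 0.041 (SD, n = 4) of the counts in control, 1.49% ± 0.087 in HFD, 1.45% ± 0.14 in ELS and 1.501% ± 0.097 in ELS-HFD. Single libraries ran from 1.25% in ELS 3 to 1.61% in HFD 4, and the ranges of the 4 groups overlapped. The 5 SNARE genes of the synapse held 0.429% of counts on average, the synaptotagmins 0.348%, the vesicle proteins 0.274%, the syntaxin-binding proteins 0.134%, the complexins 0.118%, the active zone and priming genes 0.0927% and the other SNARE genes 0.0723%. The complexins had 0.117% ± 0.012 in control, 0.114% ± 0.0065 in HFD, 0.111% ± 0.0094 in ELS and 0.129% ± 0.019 in ELS-HFD. In bulk tissue, fewer cells of a type and less RNA per cell cannot be told apart.

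**Figure D1:**
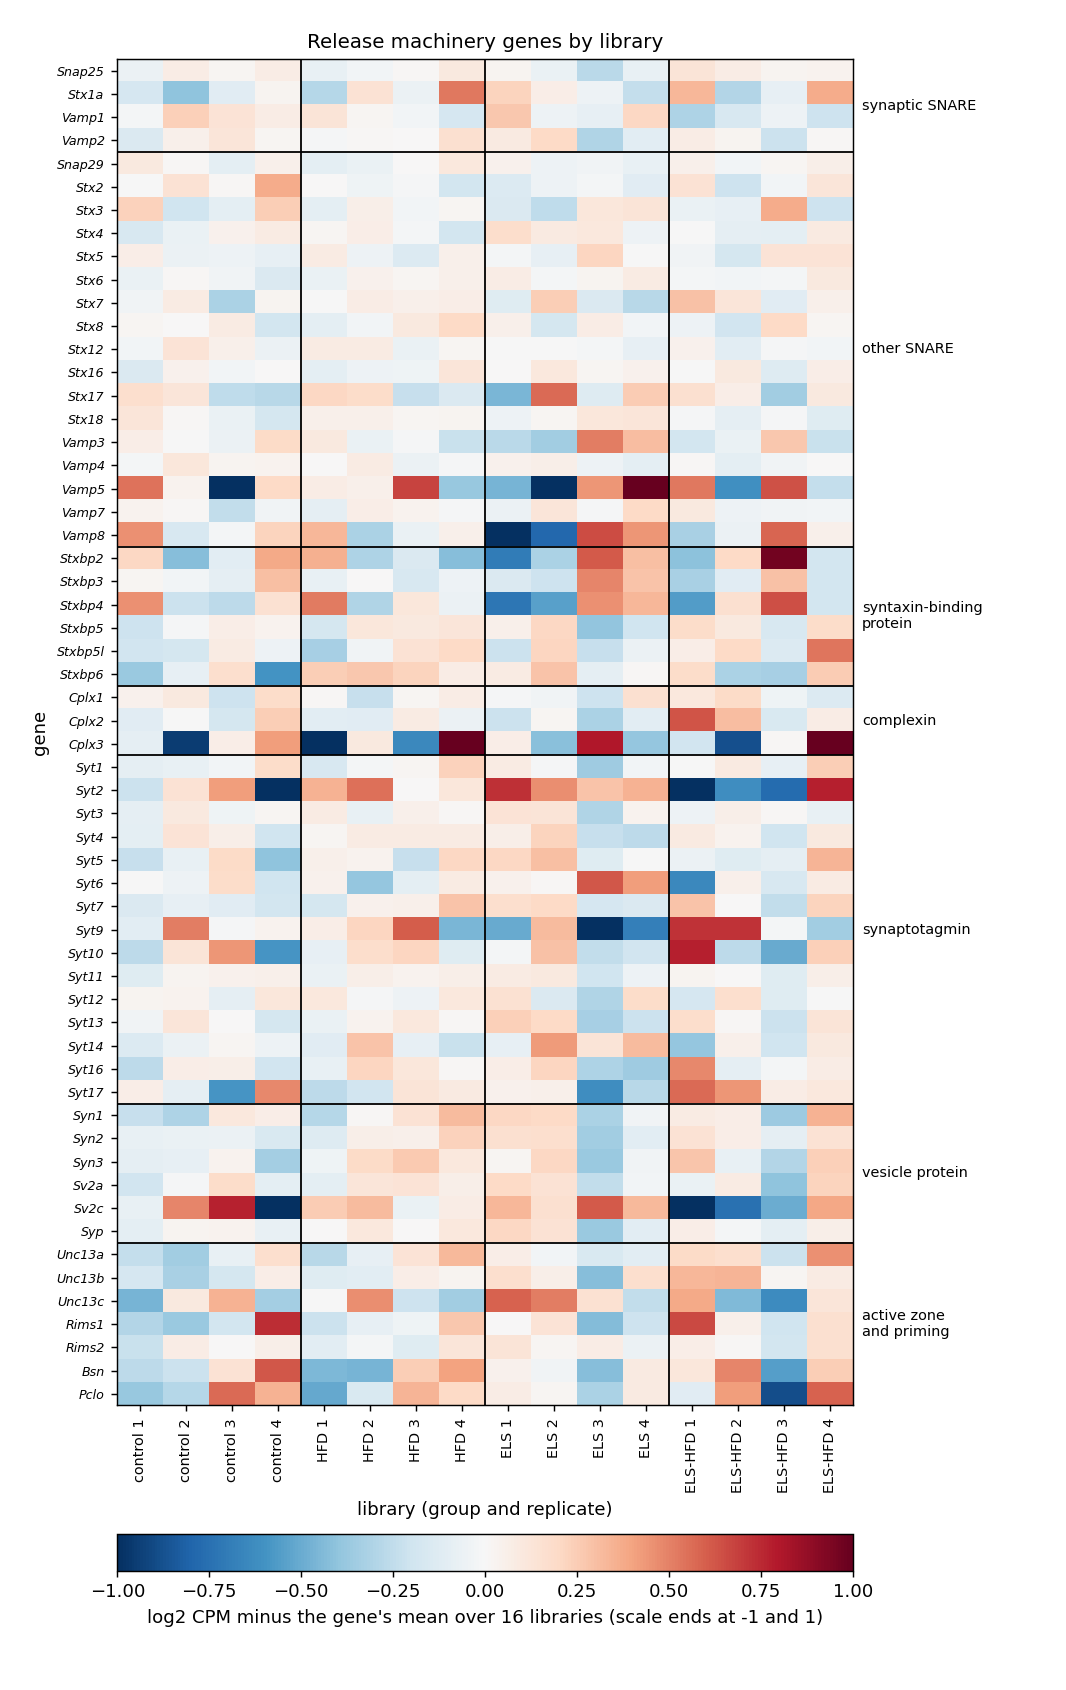
Log2 CPM of 58 of the genes that passed the filter (rows, by role) in 16 libraries (columns), relative to the average of that gene, with colours clipped at -1 and 1. Vertical lines separate the groups. ELS 3 is blue for most synaptotagmins and vesicle proteins, and Syt2 and Sv2c are dark blue in control 4 and ELS-HFD 1.

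The heat map shows which libraries held the highest and the lowest values. ELS 3 was the lowest library for 16 of the 60 genes, or 26.7%, beside 14% of all genes tested. It was lowest for 7 of 15 synaptotagmins and for 3 of 6 vesicle proteins. ELS-HFD 4 was the highest library for 10 genes, or 16.7%, beside 7.78% of all genes. In ELS 3 the 10 neuronal markers measured were the lowest of any library, at a level of -0.25, and the 15 myelin markers the highest, at 0.96. Their part in these counts was not tested.

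Among the synaptic SNARE genes, Vamp2 overlapped between all groups, while Snap25 was separate in 1 pair. Vamp2, the chief synaptobrevin of forebrain synapses, had 1486, 1709, 1794 and 1667 CPM in control 1 to 4, 1635, 1657, 1654 and 1834 CPM in HFD, 1753, 1890, 1333 and 1530 CPM in ELS, and 1733, 1676, 1421 and 1661 CPM in ELS-HFD. The lowest was ELS 3, and all 4 groups overlapped. The log2 fold of Vamp2 against control lay between -0.04 and 0.03 in the 3 groups. Snap25, the plasma membrane SNARE, had 1697, 1864, 1793 and 1862 CPM in control, 1687, 1738, 1790 and 1894 CPM in HFD, 1802, 1696, 1470 and 1678 CPM in ELS, and 1941, 1868, 1804 and 1818 CPM in ELS-HFD. Each ELS-HFD library lay above each ELS library, the closest pair being ELS-HFD 3 at 1804 and ELS 1 at 1802 CPM, and the other pairs of groups overlapped. Stx1a, a syntaxin that pairs with Snap25, ranged from 141 CPM in control 2 to 269 in HFD 4.

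Vamp1, a synaptobrevin more prominent in hindbrain and spinal cord than in forebrain, was the member with the smallest p in 3 contrasts and in the test among all 4 groups. It had 200, 239, 224 and 214 CPM in control, 222, 206, 199 and 181 CPM in HFD, 245, 196, 192 and 235 CPM in ELS, and 164, 182, 196 and 177 CPM in ELS-HFD. Each ELS-HFD library lay below each control, while ELS-HFD overlapped with HFD and with ELS. The log2 fold of ELS-HFD against control was -0.29 ± 0.09 (SE, as for all folds), with an adjusted p = 1 in edgeR. Against ELS it was -0.27 ± 0.09, with an adjusted p = 0.678. The fold for diet averaged over both rearings was -0.20 ± 0.06, with an adjusted p = 0.824. In the authors' deposited table Vamp1 had a log2 fold of -0.282 for ELS-HFD against control, with an adjusted p = 0.116 once the p-values had been corrected there. Vamp1 was lowest in ELS-HFD 1, which was also lowest for the myelin markers, at -0.68, and highest in ELS 1, where those stood at -0.08.

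**Figure D2:**
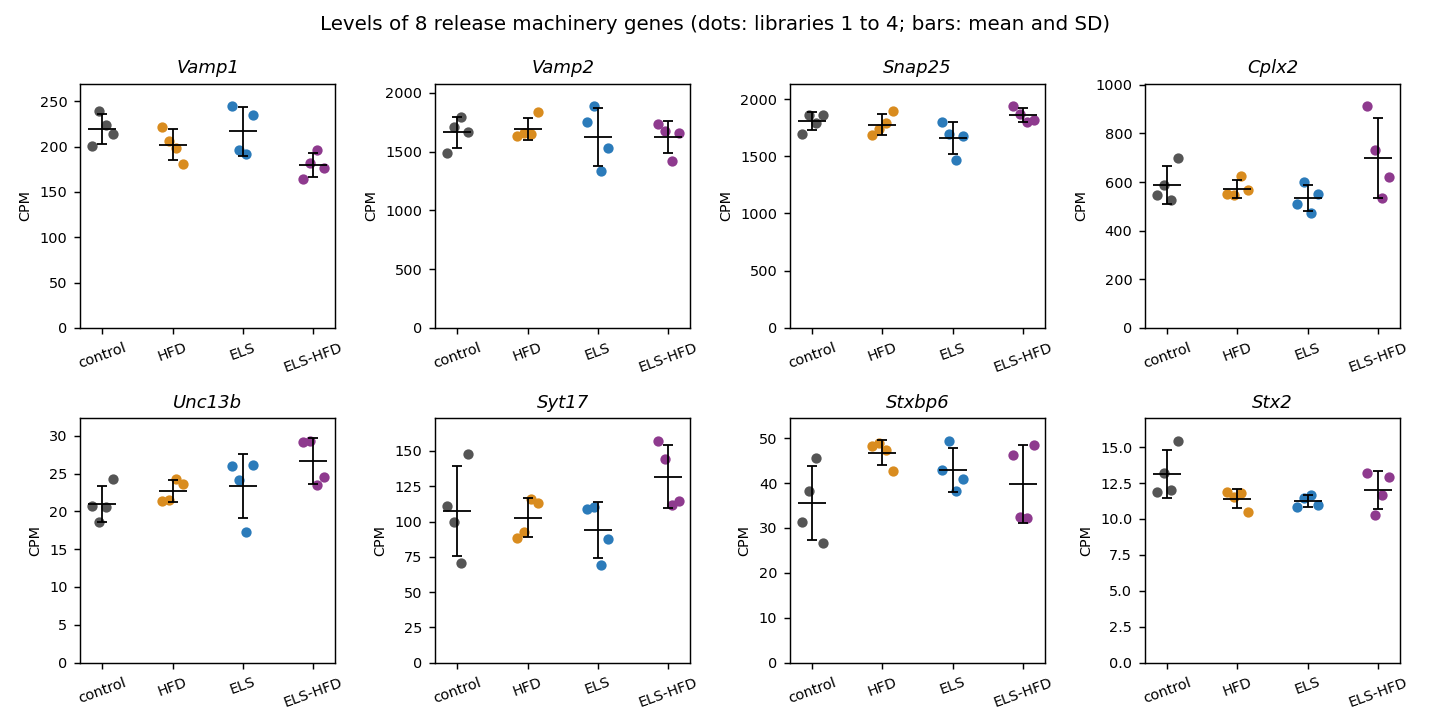
CPM of 8 release machinery genes by group, with 1 dot per library in order of replicate number and the mean with its SD in black, on axes that start at 0. The 4 ELS-HFD libraries of Vamp1 lie between 164 and 196 CPM, below the controls at 200 to 239 CPM, and most other groups overlap.

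The other SNARE genes serve transport within the cell or, as Stx2, Stx3 and Stx4, fusion at the plasma membrane, and they held the steadiest members. The SD of log2 CPM over 16 libraries was 0.059 for Vamp4, 0.064 for Stx6, 0.066 for Snap29, 0.066 for Stx12, 0.079 for Stx16 and 0.086 for Stx18, the 6 narrowest among members of at least 5 CPM. Vamp4, Stx6 and Stx16 act between endosomes and the trans-Golgi network, Stx12 on recycling endosomes, Snap29 in several membrane fusion steps and Stx18 at the endoplasmic reticulum. Stx6 had a log2 fold of 0.10 ± 0.05 for ELS against control. Stx18 had 42.2, 42.2, 41.4 and 41.4 CPM in HFD and 40.3, 38.2, 40.4 and 37.4 CPM in ELS-HFD, where all 4 lay below HFD, with a log2 fold of -0.10 ± 0.06. Stx2, a plasma membrane syntaxin, had 11.8, 13.2, 12.0 and 15.5 CPM in control and 10.8, 11.48, 11.7 and 11.0 CPM in ELS. All 4 ELS libraries lay below the controls, at a log2 fold of -0.22 ± 0.10 (adjusted p = 0.999 in edgeR). Without control 4, the highest library, the fold of Stx2 was -0.13.

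Vamp3 and Vamp8, endosomal SNAREs that glia and other non-neuronal cells express, varied with the library. Vamp3 reached 55.5 CPM in ELS 3, 48.3 CPM in ELS 4, then 46.9 CPM in ELS-HFD 3, and had 30.5 CPM in ELS 2, its lowest. Those were its 3 highest libraries and also the 3 highest for the myelin markers, which stood there at 0.96, 0.77 and 0.23, a match that 2.77% of all genes tested share. Vamp8 had 6.49 CPM in ELS 3 and 6.18 in ELS-HFD 3, and 1.88 in ELS 1 and 2.31 in ELS 2. The 9 choroid plexus markers measured were high in the first pair, at 2.33 and 2.16, and low in the second, at -2.33 and -5.46. The first pair was also among the 3 highest for the myelin markers. For this match of Vamp8 the share of all genes was not counted, and the part of either list was not tested. Vamp5, of muscle and other non-neural tissue, had at most 16 counts in a library, so that no steady level could be read at this depth.

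Several syntaxin-binding proteins differed between libraries. Stxbp5l, a tomosyn that inhibits fusion, had a log2 fold of 0.27 ± 0.14 for ELS-HFD against control, which was 0.13 without ELS-HFD 4. Stxbp6 encodes amisyn, which binds syntaxin and lowers exocytosis. It had 31.3, 38.3, 45.6 and 26.7 CPM in control, 48.3, 49.0, 47.4 and 42.6 CPM in HFD, 43.04, 49.5, 38.2 and 40.9 CPM in ELS, and 46.2, 32.5, 32.2 and 48.5 CPM in ELS-HFD. HFD libraries were high and even, and 1 control, control 3, lay within their range. The log2 fold of HFD against control was 0.40 ± 0.16, with an adjusted p = 1 in edgeR. The separation by diet interaction was -0.50 ± 0.22, with an adjusted p = 1.

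Stxbp2, Stxbp3 and Stxbp4 act outside the synapse, in secretory and immune cells and in insulin-responsive tissue. Stxbp3 had its highest levels in ELS 3, at 50.1 CPM, control 4, at 44.1, ELS-HFD 3, at 43.8, and ELS 4, at 43.7. These are the 4 libraries with the highest myelin marker levels. It was lowest in ELS-HFD 1, at 28.5 CPM, where myelin markers were lowest too. Stxbp4 ran from 4.15 CPM in ELS 1 to 10.9 in ELS-HFD 3, and Stxbp2 from 2.51 CPM in ELS 1 to 8.21 in ELS-HFD 3. The 3 lowest libraries of Stxbp4, ELS 1, ELS-HFD 1 and ELS 2, were the 3 lowest for choroid plexus markers. For these matches of Stxbp3 and Stxbp4, the share of all genes was not counted. Stxbp4 was also high in HFD 1, at 10.0 CPM, and control 1, at 9.55, where choroid plexus markers stood at 1.83 and 2.27 and myelin markers near 0. The 15 myelin markers summed to 6578 to 8510 CPM in control, 5711 to 7051 in HFD, 5958 to 15736 in ELS and 3764 to 8501 in ELS-HFD, with none at 0 in a library. The part of either list in these levels was not tested.

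Complexins bind the assembled SNARE complex. Cplx2 had 545, 588, 524 and 699 CPM in control, 550, 547, 626 and 567 CPM in HFD, 510, 598, 474 and 549 CPM in ELS, and 914, 732, 532 and 621 CPM in ELS-HFD. ELS-HFD 1 and 2 were above every other library, while ELS-HFD 3 lay among the ELS libraries. The log2 fold of ELS-HFD against ELS was 0.39 ± 0.14, with an adjusted p = 0.682 in edgeR, and 0.24 without ELS-HFD 1. The interaction was 0.43 ± 0.19, with an adjusted p = 1, and 0.28 without that library. Cplx1 ranged from 480 CPM in HFD 2 to 644 in ELS-HFD 2, with group means of 580, 554, 557 and 579 CPM in control, HFD, ELS and ELS-HFD. Cplx3, a complexin of retina and of some deep cortical neurons, had the widest spread of all members, with an SD of log2 CPM of 0.84. It stood at 34.4 CPM in HFD 4 and 26.7 in ELS-HFD 4, and between 3.88 and 16.5 CPM in the other 14 libraries. HFD 4 and ELS-HFD 4 were also the 2 highest libraries for the 8 excitatory markers, at 0.48 and 0.43. ELS 3, the next highest for Cplx3 at 16.5 CPM, was the lowest of all libraries on that list, at -0.50. The part of these markers in the levels of Cplx3 was not tested.

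**Figure D3:**
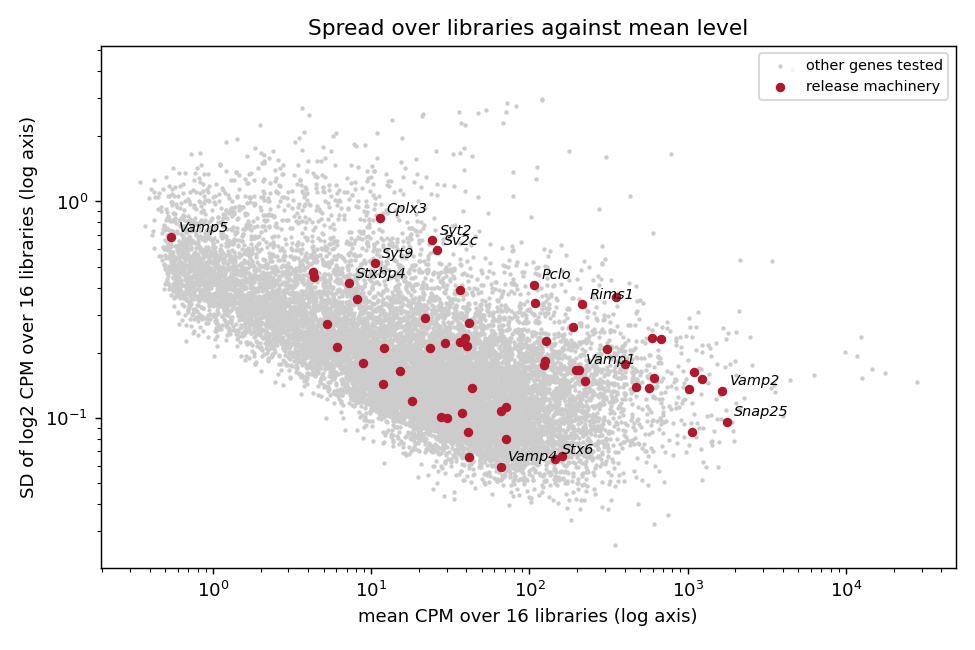
SD of log2 CPM over the 16 libraries against mean CPM, both on log axes, for 60 release machinery genes (red) and the other genes tested (grey). Among the red genes, Cplx3, Vamp5, Syt2, Sv2c and Syt9 lie highest, with SDs of 0.84, 0.68, 0.66, 0.60 and 0.52, and Vamp4 and Stx6 lie lowest.

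Synaptotagmins are the calcium sensors of fusion and their relatives. Syt1, the fast sensor of most forebrain synapses, had 1153, 1163, 1202 and 1396 CPM in control, 1096, 1213, 1247 and 1441 CPM in HFD, 1303, 1216, 960 and 1207 CPM in ELS, and 1224, 1309, 1158 and 1455 CPM in ELS-HFD. The groups overlapped. Its 3 highest libraries, ELS-HFD 4, HFD 4 and control 4, were the 3 highest for the excitatory markers, a match seen in 0.852% of all genes tested. Syt7, a slow sensor tied to asynchronous release, had a log2 fold of 0.19 ± 0.12 for HFD against control, or 0.11 without HFD 4. Syt4 and Syt13, relatives that do not sense calcium, were lowest in ELS 3, ELS 4 and ELS-HFD 3, the libraries highest for myelin markers. Syt13 had 155, 168 and 168 CPM there, and 174 to 231 CPM in the other libraries. Among all genes tested 1.63% share this pattern.

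Syt2, a fast sensor of hindbrain synapses and of fast-spiking interneurons, had the second widest spread among members of at least 5 CPM. It had 19.2, 24.7, 30.0 and 7.97 CPM in control, 28.4, 32.9, 22.4 and 24.2 CPM in HFD, 37.2, 31.0, 27.3 and 28.5 CPM in ELS, and 10.3, 14.5, 13.1 and 38.5 CPM in ELS-HFD. The ELS-HFD group was split, with 3 libraries low and the fourth the highest of all 16. The interaction was -1.09 ± 0.53, and -1.69 without ELS-HFD 4. Control 4, ELS-HFD 1 and ELS-HFD 2, lowest for the 14 markers of striatal medium spiny neurons at -0.99, -0.83 and -0.86, had 3 of the 4 lowest Syt2 levels. ELS-HFD 4, highest for Syt2, stood at 0.74 on that list, while ELS 3, highest on the list at 1.18, had a middling Syt2 level. The 4 lowest libraries of Syt2 were the 4 lowest of the amygdala markers, control 4 at -0.92, ELS-HFD 1 at -0.78, ELS-HFD 2 at -0.51 and ELS-HFD 3 at -0.40. ELS-HFD 4, highest for Syt2, was the next lowest on that list, at -0.05. The share of all genes with this match was not counted.

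Syt9, Syt17 and Syt6 differed between ELS-HFD and ELS by unadjusted p. Syt9, a fast sensor of some limbic and striatal neurons, had 6.98, 12.4, 4.69 and 6.15 CPM in ELS and 16.5, 16.5, 9.79 and 7.79 CPM in ELS-HFD, with overlap and a log2 fold of 0.75 ± 0.31. Syt17, a membrane trafficking protein that binds no calcium, had 109, 110, 68.9 and 87.4 CPM in ELS and 157, 144.03, 112 and 114 CPM in ELS-HFD. All 4 ELS-HFD libraries lay above the ELS libraries, with a log2 fold of 0.49 ± 0.20, and 0.26 without ELS 3 and ELS 4. Syt6, a relative without a settled synaptic role, had 22.3, 21.8, 33.4 and 28.9 CPM in ELS and 13.8, 22.4, 19.4 and 22.9 CPM in ELS-HFD. Its ELS 3 and ELS 4 libraries were the highest of all 16, and the log2 fold of -0.44 ± 0.17 was -0.18 without them. In ELS 3 and ELS 4 the myelin markers stood at 0.96 and 0.77 and the striatal markers at 1.18 and 0.60. For ELS against control, Syt9 had a log2 fold of -0.54 ± 0.31 and Syt6 of 0.31 ± 0.17. Without ELS 3 and ELS 4, which leaves only ELS 1 and ELS 2 in ELS, these folds were -0.17 and 0.05. Without ELS 1, ELS 2 and ELS-HFD 1, which leaves only ELS 3 and ELS 4 in ELS, they were -1.02 and 0.54. Syt14, for the same comparison, stood at 0.27 ± 0.15.

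**Figure D4:**
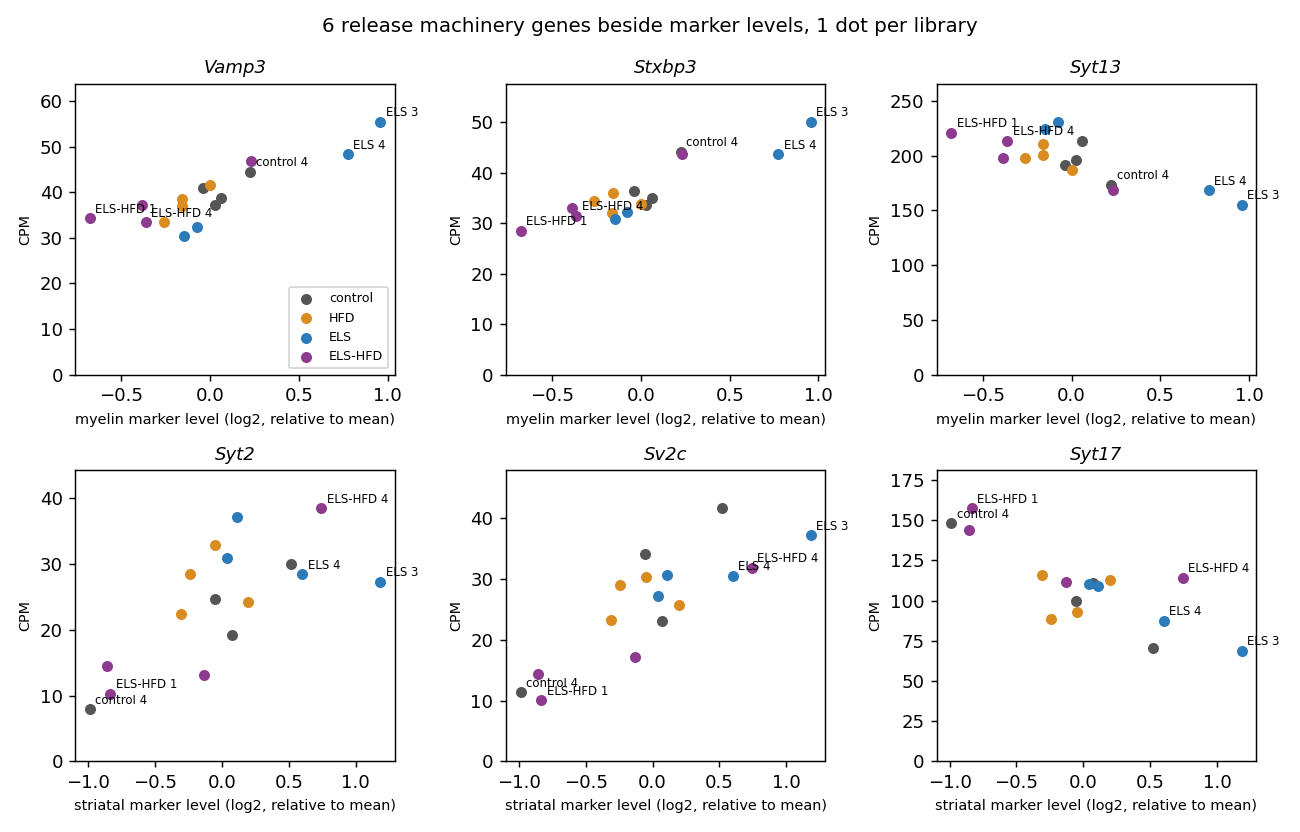
CPM of 6 release machinery genes (vertical axes, from 0) against the mean log2 level of a marker list relative to all libraries (horizontal axes), with 1 dot per library coloured by group. ELS 3 and ELS 4 lie to the right in the myelin panels, with high Vamp3 and Stxbp3 and low Syt13, and control 4 and ELS-HFD 1 lie to the left in the striatal panels, with low Syt2 and Sv2c and high Syt17.

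Among the vesicle proteins, ELS 3 was the lowest library for Syn2, Syn3 and Syp, and ELS-HFD 3 for Syn1 and Sv2a. Syn1, Syn2 and Syn3 encode synapsins, Sv2a the vesicle glycoprotein that the antiepileptic levetiracetam binds, and Syp synaptophysin. Syp had 944, 1031, 1039 and 959 CPM in control, 1013, 1090, 1012 and 1091 CPM in HFD, 1170, 1118, 780 and 942 CPM in ELS, and 1059, 999, 948 and 1055 CPM in ELS-HFD. ELS 3 was the lowest and ELS 1 the highest, both of the same group. Syn1 had 632 ± 90.3 (SD, n = 4) CPM in control, 699 ± 120 in HFD, 683 ± 111 in ELS and 694 ± 136 in ELS-HFD. Syn2 had 571 ± 17.0 CPM in control, 632 ± 63.1 in HFD, 600 ± 98.5 in ELS and 637 ± 48.5 in ELS-HFD. Sv2a had 394 ± 44.4 CPM in control, 416 ± 30.4 in HFD, 408 ± 54.8 in ELS and 394 ± 69.6 in ELS-HFD. Syn3 had a log2 fold of 0.25 ± 0.14 for HFD against control.

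Sv2c, the vesicle glycoprotein concentrated in the basal ganglia, varied like Syt2. It had 23.1, 34.1, 41.6 and 11.4 CPM in control, 29.1, 30.3, 23.3 and 25.6 CPM in HFD, 30.6, 27.2, 37.2 and 30.5 CPM in ELS, and 10.1, 14.5, 17.2 and 31.9 CPM in ELS-HFD. ELS-HFD 1, control 4 and ELS-HFD 2 were its 3 lowest libraries and also the 3 lowest for the striatal markers. With ELS-HFD 3 they were its 4 lowest, the same 4 that were lowest for the amygdala markers. ELS-HFD 4, the next lowest for the amygdala markers at -0.05, had 31.9 CPM. The share of all genes with such matches was not counted for Sv2c. The log2 fold of ELS-HFD against control was -0.58 ± 0.34, -0.99 without ELS-HFD 4 and -0.33 without control 3. Against HFD it was -0.55 ± 0.34, -0.96 without ELS-HFD 4 and -0.35 without ELS 1, ELS 2 and ELS-HFD 1. Against ELS it was -0.77 ± 0.34, with an adjusted p = 0.766 in edgeR. The 14 striatal markers summed to 736 to 2078 CPM in control, 1198 to 1569 in HFD, 1555 to 3020 in ELS and 879 to 2246 in ELS-HFD, with none at 0 in a library. The part of either marker list in the levels of Sv2c and Syt2 was not tested.

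The active zone and priming genes had the widest typical spread of the 7 roles, with a median SD of log2 CPM of 0.34, beside 0.14 for the synaptic SNARE genes and 0.11 for the other SNARE genes. Unc13b, a vesicle priming factor of the Munc family, had 20.7, 18.6, 20.5 and 24.2 CPM in control, 21.4, 21.6, 24.3 and 23.6 CPM in HFD, 26.03, 24.2, 17.2 and 26.1 CPM in ELS, and 29.2, 29.4, 23.5 and 24.5 CPM in ELS-HFD. ELS-HFD 1 and 2 were the highest, and 1 control overlapped with the group. The log2 fold of ELS-HFD against control was 0.35 ± 0.13, with an adjusted p = 1 in edgeR. For separation averaged over both diets it was 0.19 ± 0.09, with an adjusted p = 1. Unc13a, the chief priming factor of excitatory synapses, had 117 ± 18.5 (SD, n = 4) CPM in control, 130 ± 23.2 in HFD, 121.4 ± 7.88 in ELS and 142 ± 26.2 in ELS-HFD, with a log2 fold of 0.28 ± 0.14 for ELS-HFD against control. Rims1, a scaffold that links vesicles to calcium channels, had 171, 162, 184 and 350 CPM in control. Control 4 was the highest of all libraries, followed by ELS-HFD 1 at 332 CPM, and ELS 3 was lowest at 155 CPM. Bsn ran from 232 CPM in ELS-HFD 3 to 523 in control 4 and Pclo from 55.7 CPM in ELS-HFD 3 to 155 in ELS-HFD 4, and no pair of groups was separate for any of the 3 scaffolds.

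HFD against control addressed the diet without separation. Of the 60 genes 0 passed in edgeR, as did 0% of all genes tested, and DESeq2 called 0. Unadjusted p was under 0.05 for 1 gene, Stxbp6, beside 1.84% of all genes, and for 1 gene in DESeq2. The count was 2 without HFD 1, beside 3.07% of all genes, and 2 without control 3, beside 2.74%. It was 2 without ELS 3 and ELS 4, beside 2.32%, and 0 without control 4, beside 1.8%. No member had separate libraries, with all 4 of HFD above or below all 4 of control, beside 1.79% of all genes. The log2 fold was above 0 for 40 of the 60, beside 45.7% of all genes, with a median of 0.04 beside -0.01. On the negative side stood Stx2 at -0.20 ± 0.10, Vamp1 at -0.12 ± 0.09 and Stxbp3 at -0.13 ± 0.15. Without control 4 the fold of Stx2 was -0.11 and that of Stxbp3 -0.04, and without HFD 4 that of Vamp1 was -0.07. The 95% interval of the fold lay within 1.5-fold in either direction for 46 of the 60.

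Maternal separation on chow was compared with control. In edgeR 0 of 60 genes passed, beside 0% of all genes, and in DESeq2 0. An unadjusted p under 0.05 was found for Stx2, beside 3.32% of all genes, and for 1 gene in DESeq2. Leaving out 1 library gave 0 members without ELS 4, ELS-HFD 3, HFD 1, HFD 3 or control 4, beside 3.03% to 3.44% of all genes. It gave 2 without ELS 2, ELS-HFD 1, ELS-HFD 2 or ELS-HFD 4, beside 3.39% to 4.38%. Without ELS 1 or control 3 it gave 3, beside 4.62% and 5.24%. Stx2 was also the gene with separate libraries, beside 1.61% of all genes. The fold was above 0 for 34 of 60, beside 49.1% of all genes. Snap25 had a log2 fold of -0.12 ± 0.07, which was -0.03 without ELS 3 and ELS 4 and -0.20 without ELS 1, ELS 2 and ELS-HFD 1. The 95% interval lay within 1.5-fold for 44 of the 60. The 9 choroid plexus markers summed to 2029 to 10938 CPM in control, 1704 to 7546 in HFD, 11.3 to 13263 in ELS and 3.78 to 11240 in ELS-HFD, with Kcnj13 and Prlr at 0 in 1 library each. Without the 3 libraries lowest on these markers, ELS 1, ELS 2 and ELS-HFD 1, unadjusted p was under 0.05 for 11 members, beside 12.4% of all genes. Without ELS 3 and ELS 4 it was under 0.05 for 10 members, beside 9.8%. The first of these fits kept only ELS 3 and ELS 4 in ELS, and the second only ELS 1 and ELS 2.

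Separation with high fat diet was compared with control. In edgeR 0 of 60 genes passed, beside 0% of all genes, and in DESeq2 0. There was an unadjusted p under 0.05 for 2 genes, Unc13b and Vamp1, beside 4.43% of all genes, and for 2 in DESeq2. Without control 4 it was 7 members, beside 6.36% of all genes, without ELS-HFD 3 it was 6, beside 6.88%, and without ELS-HFD 4 it was 4, beside 4.39%. Vamp1 was the gene with separate libraries, beside 1.98%. Folds above 0 were found for 38 of 60, beside 46.9%, with a median of 0.04. Vamp4 had a log2 fold of -0.07 ± 0.05, and -0.04 without ELS-HFD 2. Unc13a was at 0.17 without ELS-HFD 4. The interval lay within 1.5-fold for 45 of the 60.

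High fat diet after separation was compared with chow after separation. In edgeR 0 of 60 genes passed, beside 0.00704% of all genes, which is 1 gene, and in DESeq2 0. Unadjusted p was under 0.05 for 7 genes, 11.7% of the 60, beside 6.21% of all genes, and DESeq2 also gave 7. The count moved in both directions with the libraries left out. It was 2 without ELS 3, beside 4.31% of all genes, and 2 without ELS-HFD 1, beside 3.64%. It was 3 without ELS 4, beside 4.91%, and 4 without ELS-HFD 2, beside 5.22%. It was 11 without ELS 2, beside 7.71%, and 9 without ELS-HFD 3 or ELS-HFD 4, beside 7.85% and 7.83%. Without both ELS 3 and ELS 4 it was 6, beside 8.31%. Higher in ELS-HFD were Cplx2, Syt17, Syt9 and Snap25, the last at 0.16 ± 0.07, and lower were Vamp1, Syt6 and Sv2c. These groups were also separate in the 9 amygdala markers, at -0.78 to -0.05 in ELS-HFD and 0.09 to 0.41 in ELS, though not in their summed CPM, at 521 to 626 and 532 to 744. None of the 9 was at 0 in a library, and the myelin markers ran from -0.68 to 0.23 and from -0.15 to 0.96. The part of these markers in the folds was not tested. Snap25 and Syt17 had separate libraries, beside 2.53% of all genes. The fold was above 0 for 34 of 60, beside 49.4%. Without ELS 1, ELS 2 and ELS-HFD 1, which leaves only ELS 3 and ELS 4 in ELS, unadjusted p was under 0.05 for 13 members. That stood beside 10.9% of all genes. The interval lay within 1.5-fold for 43 of the 60.

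Separation among rats on the high fat diet was read from ELS-HFD against HFD. In edgeR 0 of 60 genes passed, beside 0% of all genes, and in DESeq2 0. An unadjusted p under 0.05 was found for 0 members, beside 1.77% of all genes, and for 1 in DESeq2. It was 3 without ELS-HFD 3, beside 2.58% of all genes, and 3 without ELS-HFD 4, beside 3.24%. It was 1 without control 3, control 4, ELS 3, HFD 3 or HFD 4, beside 1.53% to 2.33%. Stx18 was the gene with separate libraries, beside 1.53%. Folds above 0 were found for 32 of 60, beside 51.3%. Cplx2 stood at 0.29 ± 0.14, Unc13b at 0.23 ± 0.12 and Vamp1 at -0.17 ± 0.09. Leaving out ELS 1, ELS 2 and ELS-HFD 1 put Cplx2 at 0.13.

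**Figure D5:**
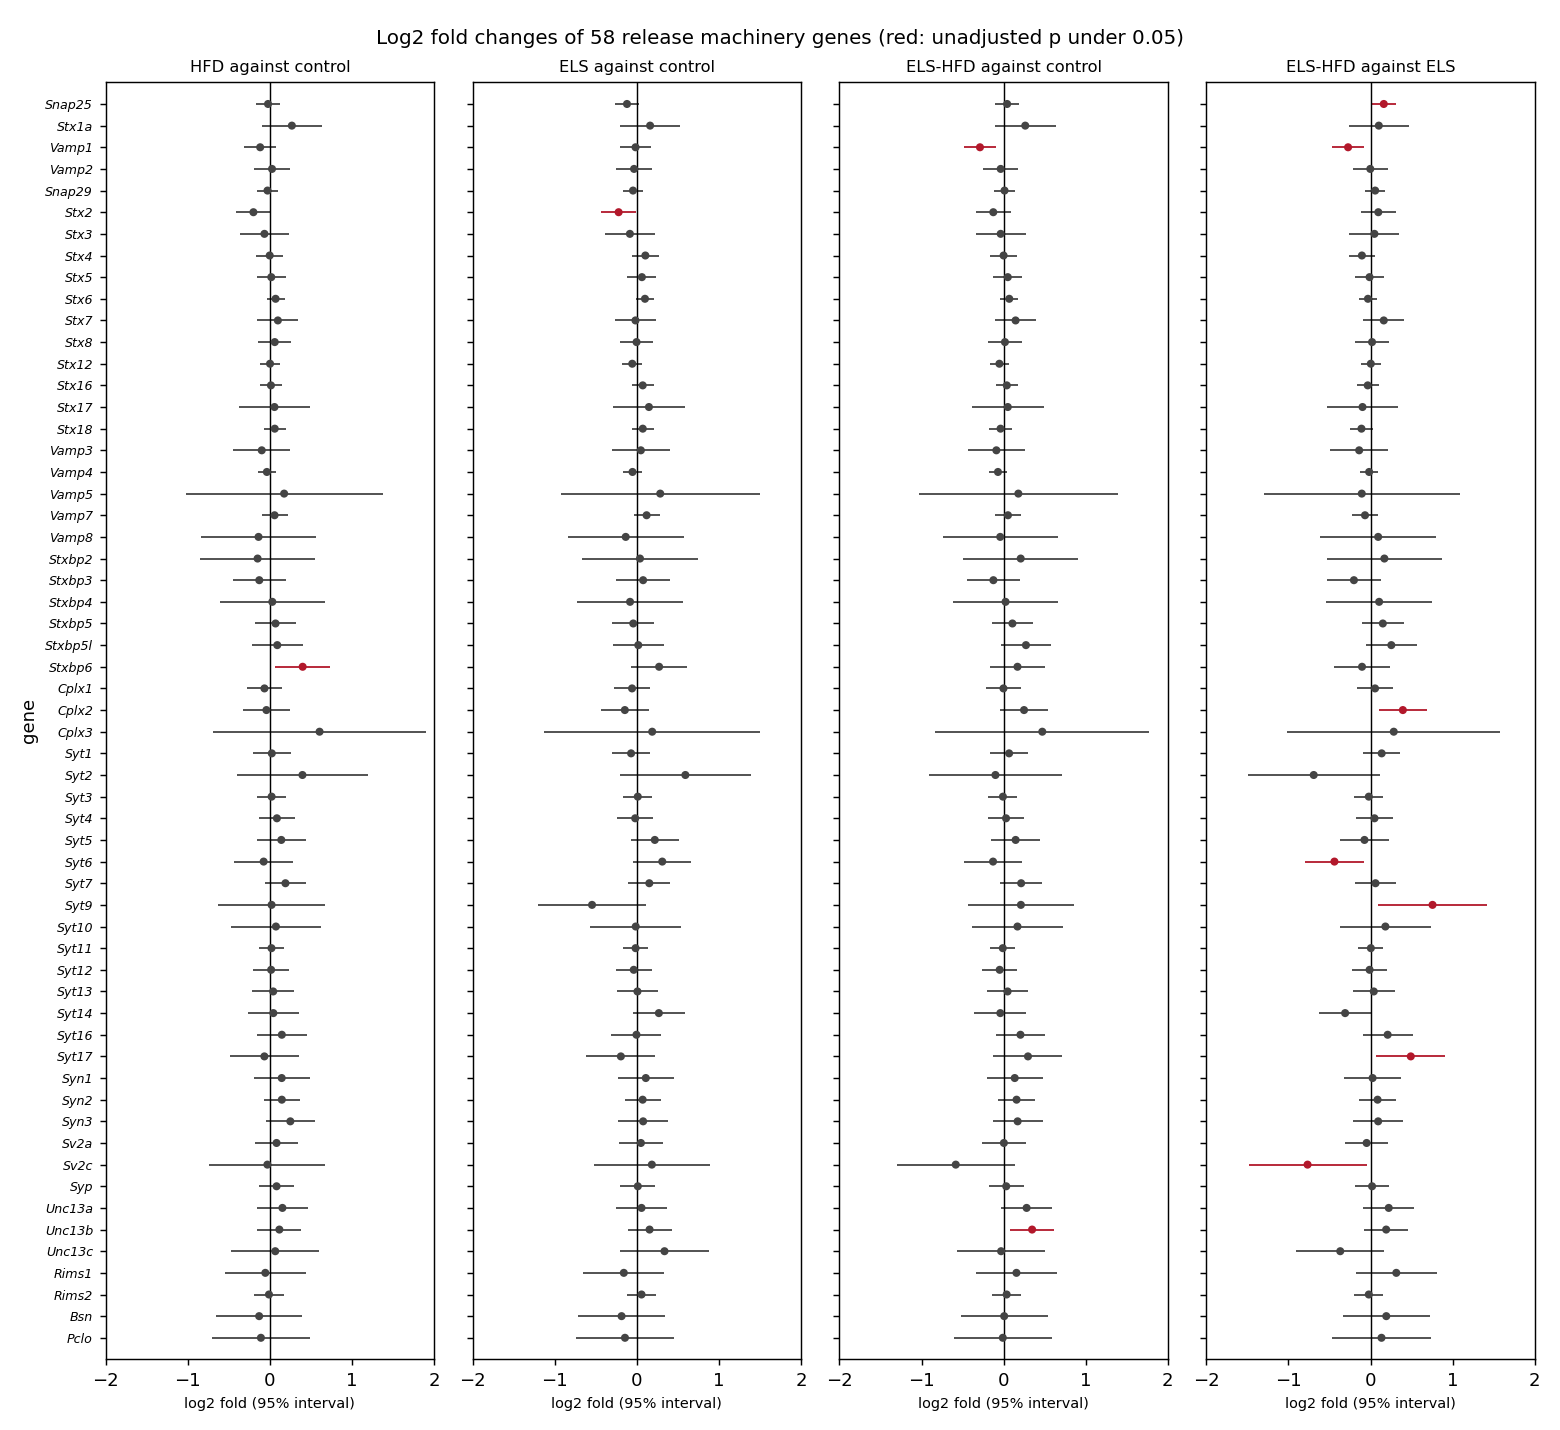
Log2 fold changes of 58 release machinery genes with 95% intervals in 4 contrasts, in red where the unadjusted p was under 0.05. The first 3 contrasts share the control libraries. Most intervals cross 0, and 7 genes are red for ELS-HFD against ELS.

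Diet averaged over both rearings gave 0 calls among the 60 genes in edgeR, beside 0.00704% of all genes, and 0 in DESeq2. There was an unadjusted p under 0.05 for 2, Vamp1 and Syt6, beside 5.54% of all genes, and for 2 in DESeq2. The fold was above 0 for 40 of 60, beside 46.8%. Unc13a was at 0.19 ± 0.10, Cplx2 at 0.18 ± 0.10 and Syt6 at -0.26 ± 0.12. Without ELS-HFD 1 Cplx2 was at 0.10, and without ELS 3 and ELS 4 Syt6 was at -0.13. The count of members under 0.05 was 8 without control 4, beside 6.75% of all genes, 7 without ELS-HFD 3, beside 7.71%, 6 without ELS 2, beside 7.63%, and 5 without ELS-HFD 4, beside 5.87%. It was 4 without ELS 1 or HFD 1, beside 7.41% and 6.66%. It was 1 without control 1, 2 or 3, HFD 2 or 3, ELS 3 or 4, or ELS-HFD 1, beside 3.95% to 5.3%. It was 11 with ELS 1, ELS 2 and ELS-HFD 1 left out, beside 11.4% of all genes.

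Separation averaged over both diets gave 0 calls in edgeR, beside 0% of all genes, and 0 in DESeq2. Unadjusted p was under 0.05 for 1 gene, Unc13b, beside 2.6% of all genes, and for 1 in DESeq2. Folds above 0 were found for 34 of 60, beside 50.9%. Stx6 was at 0.05 ± 0.04 and Stx12 at -0.05 ± 0.04, which was -0.03 without control 2. Without ELS 1, ELS 2 and ELS-HFD 1 the count of members under 0.05 was 10, beside 11.3%, and Unc13b was at 0.11. It was 3 without ELS 3 and ELS 4, beside 5.43%. It was 0, beside 1.91% to 3.48%, without any 1 of control 1 to 3, HFD 1, 2 or 4, ELS 1, 2 or 4, or ELS-HFD 1 or 2.

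The separation by diet interaction gave 0 calls in edgeR, beside 0% of all genes, and 0 in DESeq2. An unadjusted p under 0.05 was found for 2 genes, Cplx2 and Stxbp6, beside 2.23% of all genes, and for 4 in DESeq2. The count was 5 without control 3, beside 3.77% of all genes, 5 without ELS-HFD 4, beside 4.39%, 5 without ELS 3 and ELS 4, beside 6.64%, and 5 without ELS 1, ELS 2 and ELS-HFD 1, beside 4.61%. It was 1 without control 2, HFD 3, ELS 3, ELS-HFD 1 or ELS-HFD 2, beside 1.51% to 2.29%. It was 0 without control 4, HFD 1 or HFD 2, beside 1.63% to 2.16%. The fold was above 0 for 24 of 60, beside 50.7%. All 6 vesicle protein genes had folds below 0, from -0.74 for Sv2c to -0.06, and 0 of them had an unadjusted p under 0.05 in edgeR. The same 6 were above 0 in ELS against control, which enters this interaction with a minus sign. Stx2 was at 0.29 ± 0.14. The interval lay within 1.5-fold for 35 of the 60. In the test for any difference among the 4 groups, 0 of 60 genes passed, beside 0.00704% of all genes, and DESeq2 called 0. There was an unadjusted p under 0.05 for 1 gene, Vamp1, beside 3.24% of all genes, and for 2 in DESeq2. It was 5 without control 4, beside 4.24% of all genes, and 4 without ELS 2 or ELS-HFD 4, beside 4.38% and 4.13%. It was 3 without control 3 or ELS-HFD 3, beside 3.84% and 4.33%, and 2 without ELS 1 or ELS 3, beside 4.33% and 2.3%. Without ELS-HFD 1 it was 0, beside 2.31%. It was 4 without ELS 3 and ELS 4, beside 4.07% of all genes, and 6 without ELS 1, ELS 2 and ELS-HFD 1, beside 8.73%.

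In the authors' deposited table no release machinery gene had an adjusted p of at most 0.05 in the 5 pairwise comparisons, either as first computed or as corrected by them. The smallest corrected adjusted p in the authors' deposited table was 0.116 for Vamp1 in ELS-HFD against control. In the authors' deposited table the corrected unadjusted p was 0.000424 there, and 0.00203 for Stxbp6 in HFD against control.

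Other genes of release and vesicle recycling did not pass either. Of 109 measured, from 8 lists that covered SNARE recycling, Rab3 proteins, active zone scaffolds, further vesicle proteins, transmitter loading, calcium channels, endocytosis and synaptotagmin relatives, 0 passed in any of the 8 contrasts in edgeR. Unadjusted p was under 0.05 for 0 of the 109 in HFD against control, where 1.84% of all genes had such a p. It was under 0.05 for 2 higher and 4 lower in ELS against control, beside 3.32%, and for 2 and 2 in ELS-HFD against control, beside 4.43%. In ELS-HFD against ELS it was 5 higher and 3 lower, beside 6.21%, and in ELS-HFD against HFD 1 higher, beside 1.77%. The counts were 4 higher and 5 lower for diet, beside 5.54%, 1 and 2 for separation, beside 2.6%, and 4 and 0 for the interaction, beside 2.23%. The vesicle-associated GTPase Rab3d had 25.6, 23.9, 24.0 and 25.2 CPM in ELS and 38.6, 32.3, 28.6 and 31.7 CPM in ELS-HFD, with separate groups. Its log2 fold was 0.41 ± 0.09, with an adjusted p = 0.648 in edgeR. The vesicular acetylcholine transporter Slc18a3 had 14.1 CPM in ELS 3 and 6.22 in ELS 4, and between 0.405 and 3.12 CPM in the other 14 libraries. The vesicular GABA transporter Slc32a1 had a log2 fold of -0.58 ± 0.20 for ELS-HFD against ELS. These lists were written with earlier results of these data known.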

How the data were processed

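RNA was sequenced from 16 brain libraries, 4 per group, made from 15 ng of RNA with a barcoded oligo-dT primer and linear amplification, as the labels' protocols state. Named without roles or versions in the submitters' processing notes are the Rnor_6.0 build and DESeq2, HTSeq, Picard, STAR and cutadapt. Whether counting used strand or molecular identifiers was not stated, so antisense transcripts may be counted with the gene they overlap. The authors deposited raw counts per gene for 15580 genes, per the file headers. Their deposited log2 fold changes, p-values and adjusted p-values are printed where their table is named, and their normalized signal was not used.

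edgeR 4.0.16 (R 4.3.3) tested the counts by quasi-likelihood, with TMM factors from 0.952 to 1.029, filterByExpr (minimum count 10, minimum total 15; 14208 genes kept) and 1 mean per group over all 16 libraries. P-values were adjusted by Benjamini-Hochberg over the 14208 genes, with a threshold of 0.05. Each SE came from the fold and its F value, and log2 CPM used a prior count of 2. Marker levels are means of log2 CPM relative to the 16 libraries. Alternatives were DESeq2 1.42.0, other size factors, no filter, a replicate block, fits of the compared groups alone, each library left out, and both library sets left out; a term for a letter in the library names was added after seeing the data. The steps were tested on simulated data. No 2 libraries held identical counts.

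The members, lists and tests were chosen with earlier results of these data known. Named genes were core members, the members with the smallest p per direction (3 against control, 2 elsewhere) and the 6 with the widest and the 6 with the narrowest spread. Syt9, Snap25 and Sv2c in ELS-HFD against ELS, Stx18 in ELS-HFD against HFD, and Vamp5 were named after their values were seen. So were the library patterns of Vamp3, Vamp8, Stxbp2, Stxbp3, Stxbp4, Cplx3, Syt1, Syt2, Syt4, Syt13 and Sv2c. Results for 3 genes, 2 of them members, are not reported here; they stayed in all fits and counts.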

Additional observations from a re-analysis of the deposited data

Results flagged for a closer look

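In 6 of 184 groups of 4 examined, 1 library stood far from the other 3, beyond the value that chance exceeds in about 1 of 20 groups. That is a smaller share than 1 of 20. Rims1 stood at 350 CPM in control 4, beside 162 to 184 CPM in the other controls. Syn2 was at 546 CPM in the same library, beside 576 to 581 CPM. Vamp2 was at 1834 CPM in HFD 4, beside 1635 to 1657 CPM. Stx6 was at 155 CPM in ELS-HFD 4, beside 142 to 143 CPM, and Syt2 was at 38.5 CPM there, beside 10.3 to 14.5 CPM. The share of counts in the active zone and priming genes was 0.0707% in ELS-HFD 3, beside 0.107% to 0.111% in the other ELS-HFD libraries.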

How the results depend on the processing

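The count of release machinery genes called was 0 in every comparison under every setting run, in edgeR and DESeq2, and leaving out 1 library in turn gave 0 to 0. The log2 folds of the members chosen by smallest p, each in the contrast it was chosen for, kept their direction in all settings run. Other folds were not put through the settings. Those include the folds of Vamp2, of Syt9, Snap25 and Sv2c in ELS-HFD against ELS, and of Stx18, Rab3d and Slc32a1. With the 10 most abundant genes left out of the totals, the share of counts in the release machinery was 1.66% in control, 1.69% in HFD, 1.65% in ELS and 1.70% in ELS-HFD. With the replicate block, a paired fit on the numbers of the labels, 0 members were called. Unadjusted p was under 0.05 for 1, 1, 3, 7, 0, 3, 0 and 0 members in the 8 contrasts. In that fit it was under 0.05 for 255, 468, 603, 852, 238, 781, 368 and 304 of the 14208 genes tested. The numbers of the labels share no stated litter or batch. Of 24 same-numbered pairs 8 correlated above 0.1, with 5 of 16 libraries closest to their own number. Without ELS 1, ELS 2 and ELS-HFD 1, the ELS group held only ELS 3 and ELS 4, the libraries highest in myelin markers. In that fit edgeR called 23 genes of all tested in ELS against control and 116 in ELS-HFD against ELS. It called 102 for diet and 72 in the test of any difference. The fit of all libraries called 0, 1, 1 and 1. None of the called genes was a member, and the cause was not tested. The letters N and B end the library names, with B on 1, 3, 1 and 2 libraries of control, HFD, ELS and ELS-HFD, and the labels do not say what they mean. A term for them, chosen after seeing the data, gave 0 members called. Unadjusted p was then under 0.05 for 3, 3, 2, 7, 5, 1, 1 and 7 members in the 8 contrasts. Without the term it was under 0.05 for 1, 1, 2, 7, 0, 2, 1 and 2. The shares of all genes were 1.85%, 3.33%, 3.34%, 4.92%, 2.59%, 3.35%, 2.67% and 3.11% with the term. Without it they were 1.84%, 3.32%, 4.43%, 6.21%, 1.77%, 5.54%, 2.6% and 2.23%. Too few libraries share a letter and a group for values within each. With 4 libraries a group, the median SE of a pairwise fold was about 0.125.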
